A study of Mus musculus with 15 samples.

Results

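The detoxification and antioxidant genes are 40 named genes of the mouse heart arrays, 18 glutathione transferases and 22 genes of the peroxide and redox systems. A gene entered by its symbol in the array annotation, and its brightest probe by mean heart signal stood for it. All 40 were on the array and passed the filter on dim signal, out of 27845 named genes, of which 18656 passed at their brightest probe. Hearts came from 5 non-diabetic *db/+* mice (C57BL/KLS-leprdb/lepr+), which carry 1 mutant leptin receptor allele, 5 untreated *db/db* mice (C57BL/KLS-leprdb/leprdb) and 5 *db/db* mice fed rosiglitazone in chow at 5 mg/kg per day. RNA was taken from whole hearts after 4 months with or without the drug. The age at the start is not given in the sources used here. The *db/db* mouse is homozygous for a mutation in the leptin receptor, becomes obese and turns diabetic. The genotype contrast therefore holds obesity and hyperglycaemia together. Rosiglitazone is an agonist of the nuclear receptor PPARγ. Each array held Cy5-labelled heart RNA against the same Cy3-labelled universal mouse reference RNA, and every level below is log2 of heart over reference at 1 probe. Such a level can be compared between hearts but not between genes.

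Glutathione transferases join the tripeptide glutathione to reactive aldehydes, epoxides and drugs, which makes these compounds soluble and ready for export. Superoxide dismutases turn superoxide into hydrogen peroxide, and the peroxide is then removed by glutathione peroxidases and peroxiredoxins, which draw on glutathione or thioredoxin, and by catalase, which splits it to water and oxygen without either. Many of these genes carry an antioxidant response element, to which the transcription factor Nrf2 (gene *Nfe2l2*) binds once it is released from its inhibitor Keap1. In heart muscle, which is rich in mitochondria, these enzymes are known as the main defence against oxidants and lipid peroxidation products.

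The 60-base probes of 4 members on which the results turn are given here, since they define what each level measured. They are written 5′ to 3′ in the sense of the transcript, with mm8 positions from the file headers.
Gsta2 (chr9:78119521-78119580, minus strand): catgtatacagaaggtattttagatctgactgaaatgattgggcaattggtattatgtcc
Gsta4 (chr9:77984049-77985221, plus strand): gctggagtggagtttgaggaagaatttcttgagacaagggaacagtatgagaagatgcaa
Mgst1 (chr6:138120416-138120475, plus strand): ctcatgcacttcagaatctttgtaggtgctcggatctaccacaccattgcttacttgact
Sod3 (chr5:52656327-52656386, plus strand): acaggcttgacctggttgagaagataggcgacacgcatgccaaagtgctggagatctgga
The *Gsta4* probe spans 1173 bases of the genome for its 60 letters, so it lies across at least 1 intron. The array annotation gives the *Gsta2* probe the accessions of both *Gsta2* and its close relative *Gsta1*, and the signals of these genes cannot be told apart at it. The 4 called genes of the mu class, *Gstm1* to *Gstm4*, lie side by side on chromosome 3 and are alike in sequence, so their probes may also share signal.

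Promoter windows from RefSeq (GRCm38.p6), 250 bases before to 50 bases after a gene's start, were found for 33 of the 40 members, 16 of them glutathione transferases. *Gclc*, *Gsr*, *Gsta4*, *Gstt2*, *Hmox1*, *Prdx6* and *Sod3* were the others. The core of the antioxidant response element was searched on both strands as TGACNNNGC, where N is any base, with no other motif searched. It stood in 10 of 45 member windows (22.2%) and in 12.4% of all 32851 windows of that length. Of the 10 members called below, 8 had a window and 2 of these, *Gsta3* and *Mgst1*, held the core. Windows this short cannot show whether a member holds the core further from its start. Their 250 bases before the start are shown with the match in capitals.
Gsta3 (chr1:21240335-21240584, plus strand): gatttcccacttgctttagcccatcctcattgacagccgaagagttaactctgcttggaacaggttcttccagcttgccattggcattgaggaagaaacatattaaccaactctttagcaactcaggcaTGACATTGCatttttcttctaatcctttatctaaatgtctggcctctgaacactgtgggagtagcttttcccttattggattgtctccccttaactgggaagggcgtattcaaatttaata
Mgst1 (chr6:138140277-138140526, plus strand): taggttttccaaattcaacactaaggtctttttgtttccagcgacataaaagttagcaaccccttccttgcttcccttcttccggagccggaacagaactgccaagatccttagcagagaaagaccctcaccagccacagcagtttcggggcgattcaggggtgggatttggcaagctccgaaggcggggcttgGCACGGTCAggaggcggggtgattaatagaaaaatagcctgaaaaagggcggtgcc
The *Mgst1* match is on the opposite strand. The other members with the core were *Gclm*, *Gstm5*, *Gstm7*, *Nfe2l2*, *Prdx1*, *Sod1*, *Srxn1* and *Txnrd1*, none of them called at the brightest probe.

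The arrays lay on 4 slides. Slide 1 held *db/+* hearts only, slide 4 treated hearts only, slide 2 *db/+* replicate 5 with untreated replicates 1 to 3, and slide 3 untreated replicates 4 and 5 with treated replicates 1 and 2. Heart signal was well above background for 56.4% to 75.6% of the probes of an array. The arrays of treated replicates 3 and 4 differed by a median absolute log2 of 0.143 in the heart channel, against 0.268 to 0.624 for the other pairs of arrays within a group. They were averaged to 1 sample, which leaves 4 treated samples and 14 samples in the fit. Transcripts of liver cells (19 hepatocyte markers tested, among them *Alb1*, *Apoa2*, *Fgg* and *Serpina1b*) differed between hearts, with a mean log2 level of -0.13 to 1.59 in *db/+*, 1.08 to 5.90 in untreated and 0.55 to 3.26 in treated hearts. Of these markers, 13 of 19 were well above background on fewer than 4 *db/+* arrays and entered the test through *db/db* hearts, so their mean leans to those hearts and their calls (6 of 19 higher in untreated, 1 of 19 in treated hearts) support nothing. Several glutathione transferases are abundant in liver, and the part of such RNA in the results below was not tested. The marker mean is used below as a covariate. It was highest in untreated hearts (median 3.79, against 1.32 in *db/+* and 1.09 in treated hearts). With it, liver RNA and group cannot be told apart in untreated hearts, whether a call is kept or lost. In treated hearts too, a call kept or lost with it is no test of liver RNA, since most markers entered through *db/db* hearts. Markers of other cells also moved with the groups. The mean of 5 neutrophil markers was 0.08 to 0.50 in *db/+*, 0.84 to 1.97 in untreated and 1.52 to 3.04 in treated hearts, that of 4 B cell markers -1.95 to -1.50, -2.86 to -2.39 and -2.63 to -2.29, and that of 6 adipocyte markers 2.13 to 3.21, 1.39 to 2.95 and 1.35 to 1.62. Neutrophil means were thus higher and B cell means lower in every *db/db* sample than in *db/+*, as were the adipocyte means lower in every treated sample. In untreated and in treated hearts, limma called 1 and 2 of the 5 neutrophil markers higher (*Lcn2* in both). It called 3 and 3 of the 4 B cell markers lower. Of the 6 adipocyte markers, 2 and 2 were called lower (*Adipoq* and *Cfd*), with *Lipe* higher in untreated hearts. Over all probes, 4.37% and 4.49% were called higher and 3.39% and 4.21% lower. Through *db/db* hearts alone, 1 of the 5 neutrophil and 1 of the 4 B cell markers entered the test, so these counts are no support. The part of these cells in the results was not tested. In whole-heart RNA, fewer cells of a type and less RNA per cell cannot be told apart.

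Glutathione transferases made up most of the members that were higher in diabetic hearts. Against *db/+*, 7 of the 40 members rose in untreated *db/db* hearts and none fell, with limma's moderated test at an adjusted p under 0.05 over 27593 probes. The background was 7.76% of all probes called, 4.37% as higher and 3.39% as lower, and 25.5% of all probes had an unadjusted p under 0.05, as did 15 of the 40 members. The 7 were the transferases *Gsta2*, *Gsta3*, *Gsta4*, *Gstm4* and *Mgst1* (5 of 18), with the quinone reductase *Nqo1* and the extracellular superoxide dismutase *Sod3* (2 of 22). In treated *db/db* hearts 8 members were higher than in *db/+* and none lower, against 8.7% of all probes called, 4.49% as higher and 4.21% as lower, and 17 of 40 members had an unadjusted p under 0.05, beside 26.8% of all probes. These were *Gsta2*, *Gsta4*, *Gstm1*, *Gstm2*, *Gstm3* and *Mgst1* (6 of 18), with *Nqo1* and *Sod3* (2 of 22). Both comparisons share the *db/+* hearts and are not independent.

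Over all members the median log2 difference from *db/+* was 0.18 in untreated and 0.13 in treated hearts, beside 0.01 and 0.01 over all tested probes. For the transferases alone it was 0.21 and 0.21, and for the peroxide and redox genes 0.12 and 0.11. Of 40 members, 31 had a positive difference in untreated and 27 in treated hearts. Over all 27593 tested probes, 14299 and 14027 had one. The groups did not overlap, with every diabetic sample above every *db/+* sample, for 7 members in untreated (4.33% of all probes, with no member in the opposite order, which 3.47% of all probes showed) and for 12 in treated hearts (7.61% of all probes). One member, *Gstt2*, lay below every *db/+* sample in the treated group (6.98% of all probes), and its difference did not pass (-0.52, adjusted p = 0.065). With treated replicates 3 and 4 taken as single arrays, *Gstm3*, *Txnrd1* and *Gstt2* overlapped *db/+*, which leaves 10 members higher and 0 lower.

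**Figure D1:**
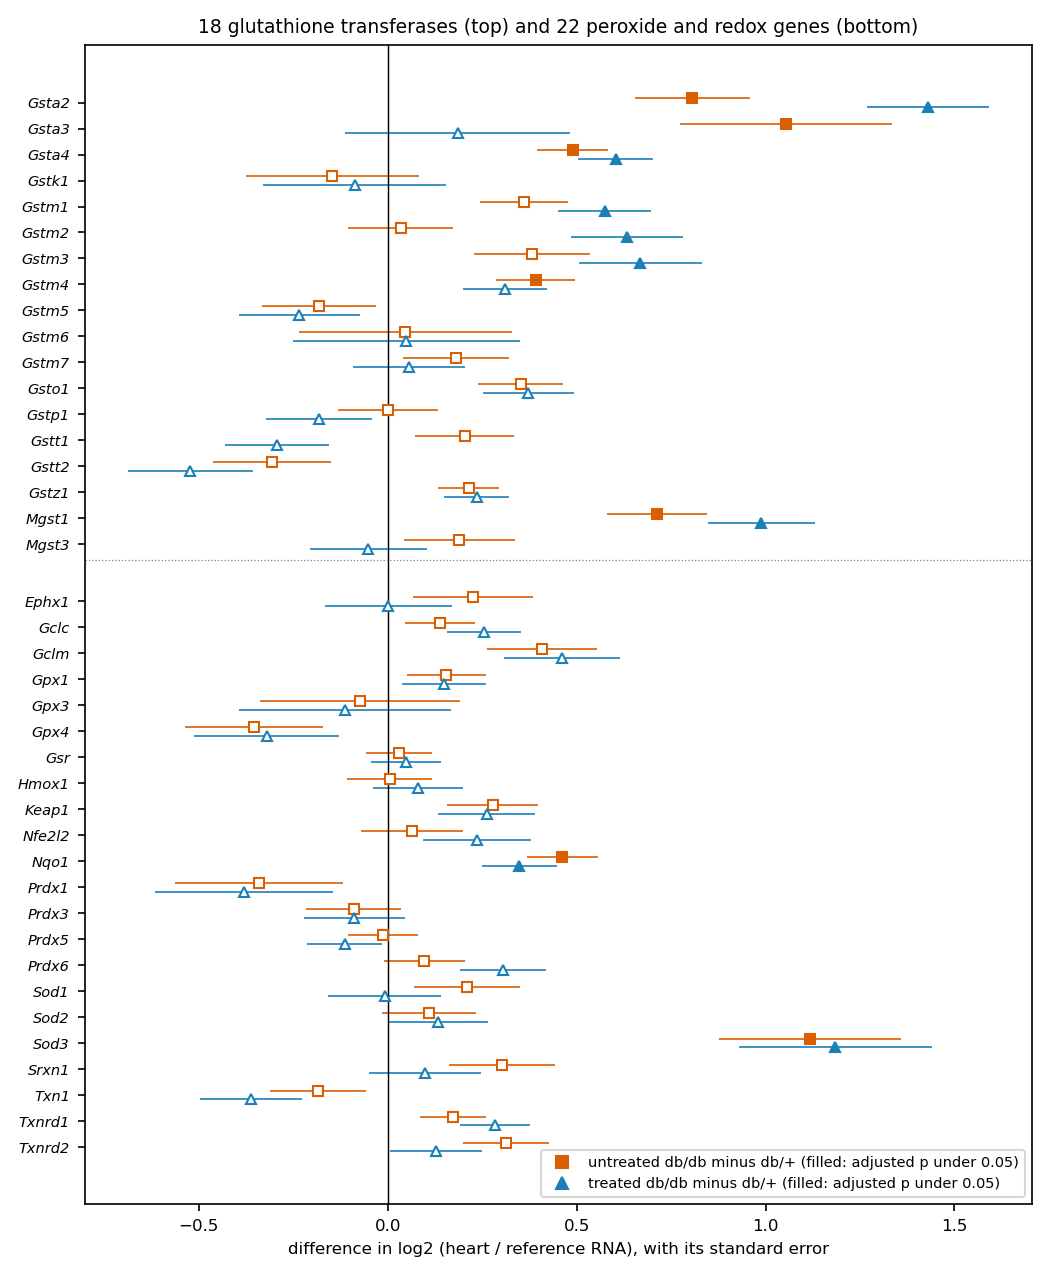
Difference in log2 of heart over reference from *db/+* for each of the 40 members, in untreated (squares) and treated (triangles) *db/db* hearts, with standard errors from the limma fit and filled symbols for an adjusted p under 0.05. The filled symbols all lie to the right of 0, from 0.35 for *Nqo1* in treated hearts to 1.43 for *Gsta2* in treated hearts, and 11 of the 15 belong to transferases.

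The slide bears on all of these calls. With the slide as a fixed block, no member passed in either comparison. The untreated difference then rests on slide 2, with replicate 5 as the only *db/+* array against untreated replicates 1 to 3. The treated difference adds to it the treated and untreated arrays of slide 3. A call lost there cannot tell an effect of the slide from the few arrays compared. The differences of the called members stayed positive, at 0.37 to 1.47 in untreated hearts (adjusted p 0.17 to 0.73) and 0.31 to 1.52 in treated hearts (adjusted p at least 0.41), and only 34 and 4 of all probes passed there.

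**Figure D2:**
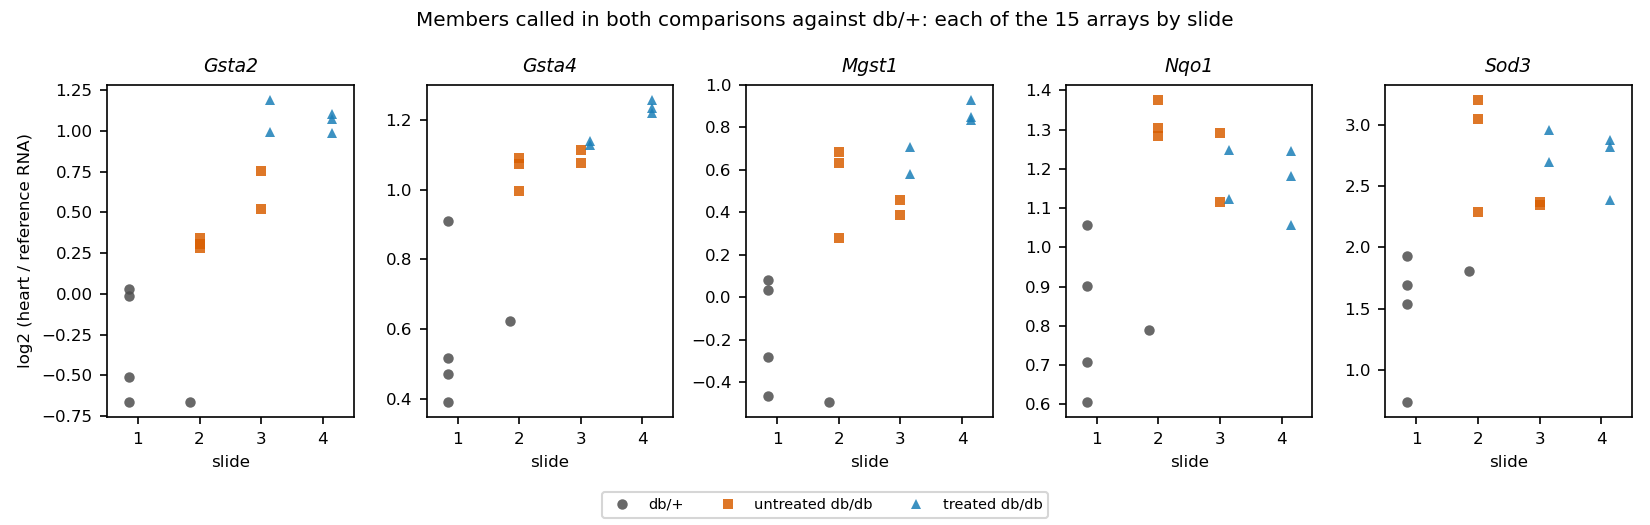
Log2 of heart over reference on each of the 15 arrays by slide, for the 5 members called in both comparisons against *db/+*. On slide 2, the lone *db/+* array lies below the 3 untreated arrays for each of the 5 members, by 0.97 for *Gsta2* and 0.43 for *Gsta4* against the untreated mean.

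The alpha class of glutathione transferases, which takes up lipid peroxides and their aldehydes, held the largest share of calls. *Gsta2*, an alpha-class enzyme induced by many foreign compounds, read -0.51, -0.67, -0.01, 0.03 and -0.66 in the 5 *db/+* hearts and 0.28, 0.31, 0.34, 0.76 and 0.52 in the 5 untreated hearts. It read 1.19, 0.99, 0.99 and 1.09 in treated replicates 1, 2, 5 and the mean of 3 and 4. The 3 groups did not overlap, with *db/+* lowest and treated hearts highest. It was 1.75-fold higher in untreated (log2 0.81, SE 0.15, adjusted p = 0.0074) and 2.70-fold higher in treated hearts than in *db/+* (log2 1.43, SE 0.16, adjusted p = 0.00021). The treated minus untreated difference of 0.62 (SE 0.16) did not pass (adjusted p = 0.41), and within slide 3 it was 0.45. Both calls against *db/+* held with any 1 sample left out. With the hepatocyte marker mean as covariate the adjusted p was 0.028 in untreated and 0.00017 in treated hearts. *Gsta1*, measured at a probe of its own and outside the 40, was also higher in untreated (log2 0.78, SE 0.15, adjusted p = 0.0086) and treated hearts (log2 1.30, SE 0.16, adjusted p = 0.00043).

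*Gsta4*, which conjugates 4-hydroxynonenal, a toxic aldehyde from oxidised membrane lipids, read 0.47, 0.52, 0.39, 0.91 and 0.62 in *db/+* hearts. The untreated hearts read 1.08, 0.998, 1.09, 1.08 and 1.12, and the treated samples 1.13, 1.14, 1.22 and 1.25. The diabetic hearts lay close together and all above the *db/+* hearts, and the treated samples all lay above the untreated ones by a narrow margin. The rise over *db/+* was 1.40-fold in untreated (log2 0.49, SE 0.09, adjusted p = 0.0081) and 1.52-fold in treated hearts (log2 0.60, SE 0.10, adjusted p = 0.0034). With the hepatocyte covariate the untreated difference was 0.53 and no longer passed (adjusted p = 0.10), while the treated one did (adjusted p = 0.0056). Treated minus untreated was 0.11 (SE 0.10, adjusted p = 0.81).

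*Gsta3*, an alpha-class enzyme known for high levels in liver, had another pattern. It read 0.08, 0.00, 0.82, 0.79 and 0.01 in *db/+* hearts, 1.67, 2.05, 0.74, 1.15 and 1.36 in untreated hearts, and 1.14, -0.11, 0.69 and 0.37 in treated samples. Untreated hearts were mostly high, and both *db/+* and treated hearts overlapped them, *db/+* at untreated replicate 3. Treated replicate 1 lay above every *db/+* heart and treated replicate 2 below every one. The untreated rise was 2.08-fold (log2 1.05, SE 0.28, adjusted p = 0.038), the treated difference from *db/+* was 0.19 (SE 0.30, adjusted p = 0.73), and treated minus untreated was -0.87 (SE 0.30, adjusted p = 0.45). Its second probe gave 0.95 in untreated hearts (adjusted p = 0.032). Untreated replicate 2 had the highest *Gsta3* and the highest mean of hepatocyte markers (5.90), and treated replicate 1 was the highest of its group in both (3.26 for the markers). Untreated replicate 3 had the next highest marker mean (4.30) with the lowest untreated *Gsta3*, and among *db/+* hearts the replicates with the lowest marker means, 3 and 4 (-0.13 and 0.52), had the highest *Gsta3*. With that mean as a covariate the untreated difference was 0.80 (adjusted p = 0.44). The call also ended when *db/+* replicate 1, 2 or 5, untreated replicate 1, 2 or 5 or treated replicate 5 was left out (adjusted p 0.051 to 0.082).

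**Figure D3:**
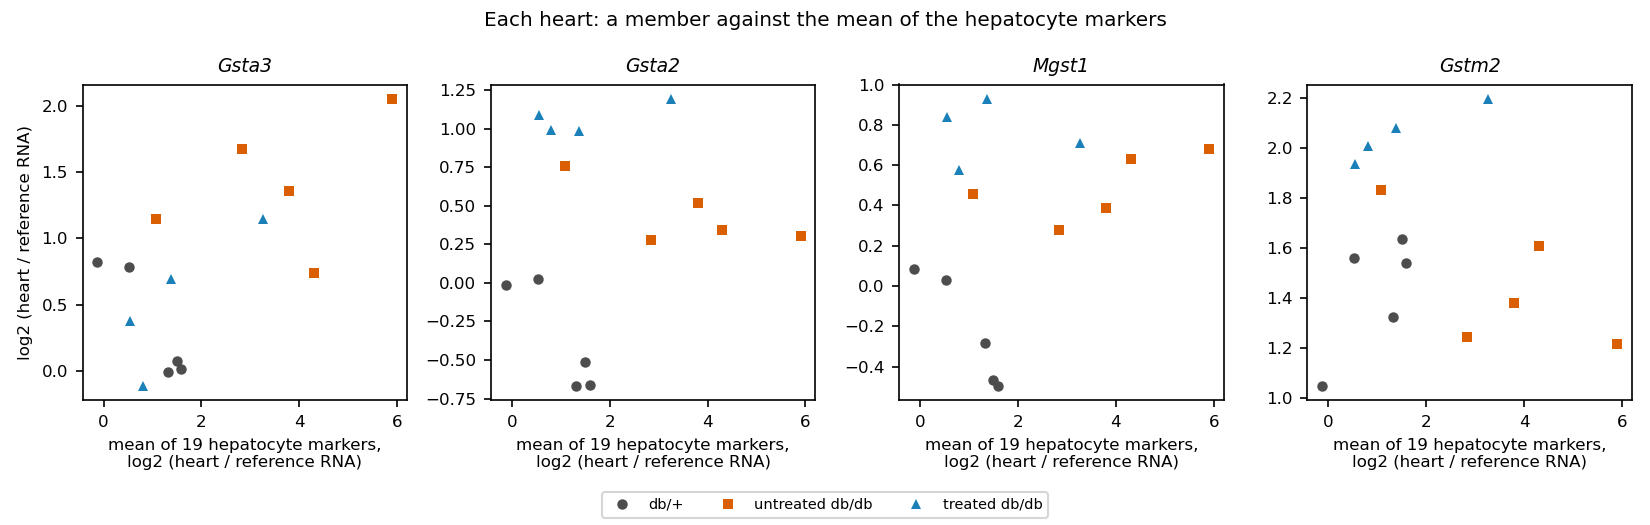
Log2 of heart over reference of *Gsta3*, *Gsta2*, *Mgst1* and *Gstm2* in each heart against the mean log2 level of 19 hepatocyte markers in the same heart. The untreated heart with the highest marker mean (5.90) has the highest *Gsta3* (2.05) and the next (4.30) the lowest untreated *Gsta3* (0.74), the *db/+* hearts run the other way (0.82 at a marker mean of -0.13, 0.01 at 1.59), and *Gsta2*, *Mgst1* and *Gstm2* are at their highest in treated hearts, whose marker means run from 0.55 to 3.26.

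*Mgst1*, a membrane-bound transferase of the endoplasmic reticulum and outer mitochondrial membrane that also reduces lipid peroxides, read -0.47, -0.28, 0.08, 0.03 and -0.49 in *db/+* hearts. It read 0.28, 0.68, 0.63, 0.46 and 0.39 in untreated hearts and 0.71, 0.58, 0.93 and 0.84 in treated samples. Every diabetic heart lay above every *db/+* heart, and the *db/db* groups overlapped. It was 1.64-fold higher in untreated (log2 0.71, SE 0.13, adjusted p = 0.0068) and 1.98-fold higher in treated hearts (log2 0.99, SE 0.14, adjusted p = 0.0013), with 0.28 (SE 0.14, adjusted p = 0.61) between them. Its second probe was also called in both, at 0.93 (adjusted p = 0.010) and 1.37 (adjusted p = 0.0014). The hepatocyte covariate left the untreated difference at 0.72 but not past the threshold (adjusted p = 0.12), and the treated one past it (adjusted p = 0.0026). *Mgst3*, its mitochondrial and microsomal relative, was not called, at 0.19 (adjusted p = 0.44) and -0.05 (adjusted p = 0.86), and all treated samples lay below all untreated hearts at this probe when replicates 3 and 4 were averaged, though not as single arrays. Another *Mgst3* probe gave 1.08 in untreated (adjusted p = 0.075) and 0.79 in treated hearts (adjusted p = 0.19), with overlapping groups.

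The mu class, the abundant cytosolic transferases of the *Gstm* cluster, was called in part, and at the brightest probe *Gstm1*, *Gstm2* and *Gstm3* passed in treated but not in untreated hearts. Their treated minus untreated differences did not pass. *Gstm1* read 1.38, 0.84, 1.11, 1.09 and 1.36 in *db/+*, 1.67, 1.41, 1.502, 1.62 and 1.38 in untreated and 1.78, 1.66, 1.92 and 1.55 in treated samples. *Gstm3* read 1.61, 0.91, 0.75, 1.21 and 1.41 in *db/+*, 1.73, 1.63, 1.34, 1.72 and 1.39 in untreated and 1.96, 1.85, 1.93 and 1.65 in treated samples. In both, the untreated hearts lay between the others and overlapped them, and treated samples lay above all *db/+* hearts, for *Gstm3* with replicates 3 and 4 averaged. *Gstm1* was 1.49-fold (log2 0.57, SE 0.12, adjusted p = 0.014) and *Gstm3* 1.59-fold higher (log2 0.67, SE 0.16, adjusted p = 0.025) in treated than in *db/+* hearts. In untreated hearts *Gstm1* differed by 0.36 (adjusted p = 0.072) and *Gstm3* by 0.38 (adjusted p = 0.14). The second *Gstm1* probe passed in untreated (0.47, adjusted p = 0.0499) and treated hearts (0.49, adjusted p = 0.048).

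*Gstm2*, a muscle-type mu enzyme, read 1.64, 1.32, 1.05, 1.56 and 1.54 in *db/+* and 1.24, 1.21, 1.61, 1.83 and 1.38 in untreated hearts. It read 2.20, 2.01, 2.08 and 1.93 in treated samples. Here *db/+* and untreated hearts covered the same range, and every treated sample lay above both. The treated hearts were 1.55-fold above *db/+* (log2 0.63, SE 0.15, adjusted p = 0.020), the untreated difference was 0.03 (SE 0.14, adjusted p = 0.91), and treated minus untreated was 0.60 (SE 0.15, adjusted p = 0.39). On slide 3 alone the treated and untreated means differed by 0.50. The calls of *Gstm1*, *Gstm2* and *Gstm3* each ended when certain single treated hearts were left out, while the differences changed little. With any 1 sample left out, the treated difference from *db/+* stayed at 0.49 to 0.63 for *Gstm1*. It stayed at 0.54 to 0.69 for *Gstm2* and 0.56 to 0.78 for *Gstm3*. Over all probes, 1093 were called without treated replicate 5, against 2401 with it. Without treated replicate 5 the adjusted p was 0.051 for *Gstm1*, 0.056 for *Gstm2* and 0.070 for *Gstm3*, without treated replicate 1 it was 0.064 for *Gstm2* and 0.072 for *Gstm3*, and without treated replicate 2 it was 0.059 for *Gstm3*.

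*Gstm4* read 1.44, 1.01, 1.16, 1.38 and 1.37 in *db/+*, 1.86, 1.68, 1.69, 1.44 and 1.65 in untreated and 1.46, 1.71, 1.60 and 1.57 in treated samples. Its untreated mean was highest, with untreated replicate 4 inside the *db/+* range. Every treated sample lay above every *db/+* heart, by a narrow margin. The untreated rise of 1.31-fold (log2 0.39, SE 0.10, adjusted p = 0.038) passed and the treated difference of 0.31 (SE 0.11, adjusted p = 0.093) did not. The call ended with the hepatocyte covariate (0.35, adjusted p = 0.37) and when *db/+* replicate 2, 3 or 4, untreated replicate 1, 2, 3 or 5 or treated replicate 5 was left out (adjusted p 0.054 to 0.087). *Gstm5*, *Gstm6* and *Gstm7* were not called, with differences of -0.18, 0.05 and 0.18 in untreated and -0.23, 0.05 and 0.06 in treated hearts. The *Gstm6* differences rest on *db/+* replicate 3, at -0.55 and not well above background. The other *db/+* hearts read 0.97 to 1.38, beside 0.75 to 1.04 in untreated and 0.69 to 1.07 in treated samples.

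**Figure D4:**
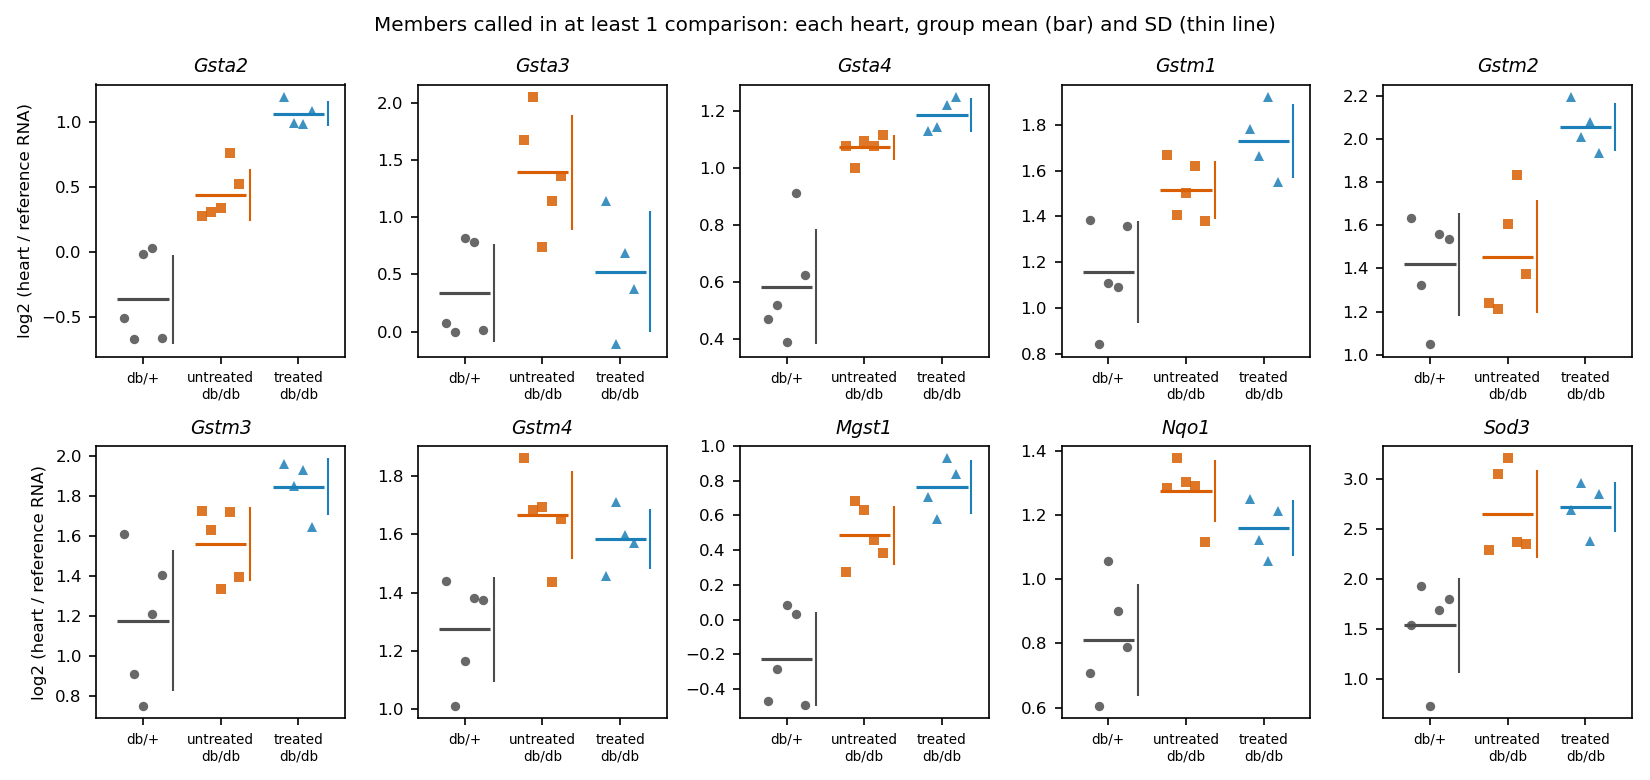
Log2 of heart over reference in each heart for the 10 members called in at least 1 comparison, by group, with the mean as a bar and the SD as a thin line (5 *db/+*, 5 untreated and 4 treated samples, with treated replicates 3 and 4 averaged). *Gsta2*, *Gsta4* and *Mgst1* step up from *db/+* to both diabetic groups, *Gstm2* is highest in treated samples, and *Gsta3* is highest in untreated hearts.

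The transferases of the other classes held no call. *Gsto1*, an omega-class enzyme that reduces dehydroascorbate, and *Gstz1*, the zeta-class enzyme of tyrosine breakdown, had differences of 0.35 and 0.21 in untreated (adjusted p = 0.072 and 0.12) and 0.37 and 0.24 in treated hearts (adjusted p = 0.068 and 0.098). Every untreated and treated sample of *Gstz1* lay above every *db/+* heart, as did the treated samples of *Gsto1*. The theta-class *Gstt1* differed by 0.20 in untreated and -0.29 in treated hearts, and *Gstt2* by -0.31 and -0.52. *Gstp1* of the pi class gave 0.00 and -0.18, and the mitochondrial *Gstk1* -0.15 and -0.09. For *Gstt1* every treated sample, at 0.33 to 0.64, lay below every untreated heart, at 0.75 to 1.28, and the difference between them was -0.50 (SE 0.14, adjusted p = 0.41).

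Among the peroxide and redox genes, *Sod3* and *Nqo1* were called. *Sod3*, the superoxide dismutase secreted into the matrix around vessels and muscle cells, read 1.54, 1.93, 0.73, 1.69 and 1.80 in *db/+* hearts. It read 2.29, 3.06, 3.21, 2.37 and 2.35 in untreated hearts and 2.70, 2.96, 2.39 and 2.85 in treated samples. All diabetic hearts lay above all *db/+* hearts, and the *db/db* groups covered the same range. The difference was 2.17-fold in untreated (log2 1.12, SE 0.24, adjusted p = 0.015) and 2.27-fold in treated hearts (log2 1.18, SE 0.26, adjusted p = 0.014). The probe is dim. Its processed heart signal was 48.5 to 146 in *db/+*, 148 to 295 in untreated and 239 to 476 in treated hearts, *db/+* replicate 3 was not well above background, and the reference channel was well above it on 5 of 15 arrays. With normexp background correction and loess the differences were 0.56 (adjusted p = 0.043) and 0.59 (adjusted p = 0.060), and with the hepatocyte covariate the untreated one was 0.70 (adjusted p = 0.36).

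*Nqo1*, the quinone reductase used as a readout of Nrf2 activity, read 0.71, 0.61, 1.06, 0.90 and 0.79 in *db/+* hearts. It read 1.28, 1.38, 1.30, 1.29 and 1.12 in untreated hearts and 1.25, 1.12, 1.06 and 1.21 in treated samples. Both diabetic groups lay above *db/+*, with treated replicate 5 closest to the highest *db/+* heart. It was 1.38-fold higher in untreated (log2 0.46, SE 0.09, adjusted p = 0.011) and 1.27-fold higher in treated hearts (log2 0.35, SE 0.10, adjusted p = 0.046). The treated call was at the edge, ending when any 1 of 11 samples was left out (*db/+* replicates 1, 2, 4 and 5, untreated replicates 1 to 4 and treated replicates 1, 2 and 5, adjusted p 0.052 to 0.12) and with the hepatocyte covariate (adjusted p = 0.062). The same covariate put the untreated difference at 0.48 with an adjusted p of 0.14.

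The regulators themselves were not called. *Nfe2l2*, which encodes Nrf2, had a mean of -0.39 ± 0.21 (SD, n = 5) in *db/+*, -0.33 ± 0.15 (n = 5) in untreated and -0.15 ± 0.28 (n = 4) in treated hearts. *Keap1*, its inhibitor, had -0.06 ± 0.17, 0.22 ± 0.14 and 0.20 ± 0.25 in the same groups, with differences from *db/+* of 0.28 (adjusted p = 0.17) and 0.26 (adjusted p = 0.21). Neither the hearts of *db/+* and untreated nor those of *db/+* and treated mice separated for these genes. *Hmox1*, haem oxygenase and a classic Nrf2 target, differed by 0.01 (SE 0.11, adjusted p = 0.98) in untreated and 0.08 (SE 0.12, adjusted p = 0.70) in treated hearts, and the epoxide hydrolase *Ephx1* by 0.23 and 0.00.

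At their brightest probes, the enzymes that make and recycle glutathione all had positive differences from *db/+* and none passed. *Gclc*, the catalytic subunit of the rate-limiting ligase, differed by 0.14 (SE 0.09, adjusted p = 0.37) in untreated and 0.25 (SE 0.10, adjusted p = 0.12) in treated hearts. Its modifier subunit *Gclm* differed by 0.41 (adjusted p = 0.099), with every untreated heart above every *db/+* heart, and by 0.46 (adjusted p = 0.077). *Gsr*, glutathione reductase, differed by 0.03 and 0.05, and a dimmer *Gsr* probe gave 0.08 and -0.01.

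The glutathione peroxidases and peroxiredoxins among the members also held no call in any comparison. *Gpx1*, the cytosolic glutathione peroxidase, had 0.15 (SE 0.10, adjusted p = 0.38) in untreated and 0.15 (SE 0.11, adjusted p = 0.42) in treated hearts, *Gpx3*, the plasma form, -0.07 and -0.11, and *Gpx4*, which reduces lipid peroxides in membranes, -0.35 and -0.32. Of the dismutases, cytosolic *Sod1* differed by 0.21 (SE 0.14, adjusted p = 0.37) and -0.01, and mitochondrial *Sod2* by 0.11 (SE 0.12, adjusted p = 0.62) and 0.13. A dimmer *Sod1* probe gave 0.43 in untreated hearts (adjusted p = 0.056), all of them above the *db/+* hearts, and -0.04 in treated hearts. *Prdx1*, a cytosolic peroxiredoxin, differed by -0.34 (SE 0.22, adjusted p = 0.36) and -0.38, and its *db/+* hearts spread from -1.39 to 0.16. *Prdx3*, *Prdx5*, *Prdx6* and the sulfiredoxin *Srxn1* lay between -0.09 and 0.30 in untreated and between -0.11 and 0.31 in treated hearts. A dimmer *Prdx6* probe gave -0.18 and -0.27, while the remaining *Prdx6* probes stayed positive. In the thioredoxin system, *Txn1* differed by -0.18 and -0.36, *Txnrd1* by 0.17 and 0.28, and mitochondrial *Txnrd2* by 0.31 (adjusted p = 0.11) and 0.13. One other *Txnrd2* probe passed in untreated hearts (0.47, adjusted p = 0.049) and another went the opposite way (-0.11).

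Between the *db/db* groups, no member was called in either direction, and no probe of the array was (0% of 27593). At an unadjusted p under 0.05 there were 4 of 40 members, a share near the 8.78% of all probes. They were *Gsta2* and *Gstm2*, higher, and *Gsta3* and *Gstt1*, lower in treated hearts. The groups did not overlap for *Gsta2*, *Gsta4* and *Gstm2*, higher in treated hearts (2.08% of all probes), and *Gstt1* and *Mgst3*, lower (2.5% of all probes). At the brightest probe, the 22 peroxide and redox genes had none in either respect. With counts this small and near the shares over all probes, this does not set the classes apart. Their differences ran from -0.22 to 0.21, and those of the transferases from -0.87 to 0.62. At dimmer probes, *Sod1* differed by -0.47 (limma unadjusted p = 0.0041, adjusted p = 0.43) and *Txnrd2* by -0.20. At both of these probes every treated sample lay below every untreated heart, with treated replicates 3 and 4 averaged. The median was 0.00 for all members and -0.01 for all probes.

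Against the reference RNA, 21 of the 40 members were higher in heart in every sample and 10 lower in every sample. Of the transferases 11 were above it throughout and 1, *Gstp1*, below, and of the peroxide and redox genes 10 were above and 9 below. *Gpx3* averaged 4.19 ± 0.55 (SD, n = 5) and *Sod2* 2.72 ± 0.14 (n = 4, with 1 outlier spot left out) in *db/+* hearts, whereas *Hmox1* averaged -2.05 ± 0.23 (n = 5).

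Related genes were read from lists, whose counts stand beside the shares over all probes. Those were 4.37% called higher and 3.39% lower in untreated, and 4.49% and 4.21% in treated hearts. Of 22 further antioxidant and glutathione genes tested, 2 were higher and none lower in untreated than in *db/+* hearts. They were *Cat*, the peroxisomal catalase (1.68-fold, log2 0.74, SE 0.10, adjusted p = 0.00078), and *Txnip*, which binds and inhibits thioredoxin (2.22-fold, log2 1.15, SE 0.26, adjusted p = 0.020). In treated hearts *Cat* (log2 0.68, adjusted p = 0.0021) and *Txnip* (log2 1.27, adjusted p = 0.016) were higher, and *Prdx4*, a peroxiredoxin of the endoplasmic reticulum (-0.57, adjusted p = 0.022), and *Blvrb*, biliverdin reductase B (-0.35, adjusted p = 0.049), were lower. For *Cat* both *db/db* ranges lay above that of *db/+* and overlapped each other. They were 1.95 to 2.24 in *db/+*, 2.58 to 3.08 in untreated and 2.72 to 2.92 in treated hearts. *Gsta1* was the only call among 7 further transferases. *Gstcd* (-0.28, adjusted p = 0.079) was next in untreated and *Mgst2* (-0.42, adjusted p = 0.074) in treated hearts.

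Other Nrf2 targets and enzymes that supply NADPH held no call among 15 tested in any comparison. The smallest p values belonged to *Cbr3*, a carbonyl reductase (-0.21, adjusted p = 0.30), and *Aldh1a1*, an aldehyde dehydrogenase (0.37, adjusted p = 0.33), in untreated hearts and to the transketolase *Tkt* (-0.34, adjusted p = 0.076) and *Cbr3* (-0.27, adjusted p = 0.19) in treated hearts. Of 7 Nrf2 partners and rivals, the small Maf protein *Maff* was higher in treated hearts (0.59, SE 0.14, adjusted p = 0.021) and did not pass in untreated ones (0.43, adjusted p = 0.063). Of 12 genes that produce oxidants, *Xdh*, xanthine dehydrogenase, was higher in untreated hearts (0.42, SE 0.12, adjusted p = 0.045), and none passed in treated hearts, where *Ncf1* (0.77, adjusted p = 0.071) and *Rac2* (-0.36, adjusted p = 0.074) came first.

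The nuclear receptors CAR and PXR are known to induce alpha-class and microsomal transferases together with cytochromes P450. Of 10 tested genes of this axis, 4 passed as higher in untreated and in treated than in *db/+* hearts. Of all probes, 4.37% and 4.49% did. They were *Cyp2b9* and *Cyp2b13*, P450 genes of liver-type drug metabolism that are alike in sequence (adjusted p 1.5e-05 to 7.0e-05), *Cyp2b10* of the same family, and *Alas1*, the first enzyme of haem synthesis (0.96, adjusted p = 0.014, and 1.05, adjusted p = 0.012). *Cyp2b10* was not well above background on any *db/+* array and entered the test through the *db/db* groups, so its call adds nothing to the count. *Cyp2c29*, also a hepatocyte marker and not called, was well above it on 3 *db/+* arrays and entered in the same way. The count is therefore no support for this axis. *Nr1i3*, which encodes CAR, was not above background on any treated array. The part of liver RNA in these calls was not tested.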

How the data were processed

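Total RNA of 15 whole hearts was measured on Agilent mouse arrays of 45018 spots. Per the file headers, the authors extracted red and green intensity with Feature Extraction 9.5.1.1, with background subtraction and LOWESS dye normalization, and deposited for each spot a log10 ratio with heart RNA (Cy5) over the reference (Cy3). The deposited series value table holds the same log10 ratios, with a largest difference of 0. Here the ratios were converted to log2, spots flagged as outliers (132 to 1210 per array) were left out, and replicate spots of 1 probe averaged. Probes well above background in the heart channel on at least 4 of 5 arrays of a group (27593 of 41174) were tested with limma 3.58.1 in R 4.3.3, in 1 fit of 14 samples with 11 residual degrees of freedom, and p values were adjusted by the Benjamini-Hochberg method over all tested probes. A call is an adjusted p under 0.05. The arrays of treated replicates 3 and 4 were averaged. The study's methods name SAM, which was not run. The number of arrays limits the precision. Nothing in the labels ties replicate numbers across groups.

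The members, gene lists, tests and the averaging were chosen with earlier results of these data known, so they are no independent support. All members are accounted for, with full values for called members, values for 10 well-known ones and, in each further list, the called genes or those with the smallest p. Alternatives were another background correction, scaling or centring, other filters, the slide or replicate number as a block, only the groups compared, array weights, a hepatocyte covariate, an adjusted p under 0.10, other probes and leaving out each sample. Keeping the outlier spots was added after the values were seen. The fit was tested on simulated data. Figures were drawn with matplotlib 3.10.9 in Python 3.11.15.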

Additional observations from a re-analysis of the deposited data

Results flagged for a closer look

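In a group of 4 or 5 samples, a value was singled out when its gap to the nearest other value took up more of the group's range than Dixon's critical value allows. Of 120 groups of members examined, 4 held such a value, and chance alone flags about 1 group in 20. *Gstm6*, a mu-class transferase, was at -0.55 in *db/+* replicate 3, whereas the other *db/+* hearts lay at 0.97 to 1.38. Its heart signal on that array was not well above background. *Nfe2l2* was at 0.27 in the mean of treated replicates 3 and 4, above -0.34 to -0.26 in the other treated hearts. *Prdx1* was at -0.54 in the same mean, above -1.05 to -0.98. *Gpx4* was at 1.505 in treated replicate 1, below 1.69 to 1.72 in the other treated samples. None of these 4 genes was called in a comparison.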

How the results depend on the processing

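No difference of a called member changed sign under any alternative. In untreated against *db/+* hearts, where 7 members were called, 11 were called with normexp correction and loess, 1 (*Gsta2*) with the hepatocyte covariate and 0 with the slide as a block, and leaving out each sample in turn gave 5 to 10. In treated against *db/+* hearts, where 8 were called, 14 were called at an adjusted p under 0.10 and 0 with the slide as a block, and leaving out each sample gave 4 (without treated replicate 5) to 9, with 5 without treated replicate 1. Between the *db/db* groups the count was 0 in all 30 alternatives. Over all probes, 2141, 0 and 2401 were called in the order untreated against *db/+*, treated against untreated and treated against *db/+*, beside 34, 1 and 4 with the slide as a block, 244, 0 and 1930 with the hepatocyte covariate and 924, 0 and 1869 with only the groups compared. The same replicate numbers did not pair the samples: 15 correlations of same-numbered samples ran from -0.19 to 0.05 and no sample was closest to its own number. With a replicate block, 1655, 0 and 2521 probes were called, and *Gsta3* and *Gstm4* in untreated hearts had an adjusted p of 0.068 and 0.069. At other probes 2 calls were added and none lost against *db/+*. The causes of these changes were not tested. Depth is limited by signal over background, and *Sod3* alone among the called members was not above background on all arrays in both channels.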
